A study of Homo sapiens with 12 samples.

Results

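The 9 genes described here encode 6 serotonin receptors (HTR1B, HTR1D, HTR2B, HTR3A, HTR4 and HTR7), the serotonin transporter SLC6A4 and the monoamine oxidases MAOA and MAOB. They were taken by gene name from a table of 58735 genes, and they bear on whether cells treated with a serotonin derivative carry transcripts of its candidate targets and enzymes. The RNA came from NCM460, a human cell line derived from normal colon mucosa, in 12 libraries, 3 in each of 4 groups. The groups were cells in medium, cells given TNF-α, cells given TNF-α and 5-OH-TMT, and cells given TNF-α in which siRNA had lowered HTRA2. 5-OH-TMT (5-hydroxy-N,N,N-trimethyltryptamine, labelled bufotenidine) is serotonin with a quaternary ammonium in place of its amine, and HTRA2 is the mitochondrial protease studied as its target. The study names a control siRNA for its knockdown comparison, but the labels do not say that the TNF-α libraries received it. Without that, transfection and loss of HTRA2 cannot be told apart in these libraries. The study lists 3 siRNAs against HTRA2 and does not say whether the 3 knockdown libraries used the same one or 1 each, so the spread within that group may include differences between siRNAs. The labels give no TNF-α dose or time. Nothing states that the 3 libraries of a group came from separate cultures, so p-values measure the spread between these libraries, which may be technical.

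Serotonin is made from tryptophan by a hydroxylase and a decarboxylase, is taken up by SLC6A4 or by organic cation carriers of lower affinity, and is broken down by monoamine oxidase. In the gut it comes mainly from enterochromaffin cells, and the receptors on epithelial cells, neurons, smooth muscle and leukocytes differ. The receptor classes other than HTR3 couple to G proteins: HTR1 receptors to Gi, HTR2 receptors to Gq, and HTR4 and HTR7 to Gs and adenylyl cyclase. HTR3A is the common subunit of the cation channel formed by HTR3 receptors.

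Of the 9 genes, 4 had a mean of at least 0.1 FPKM (fragments per kilobase of gene length, scaled to library size) and passed the filter on low values: MAOA, HTR7, MAOB and HTR1D. HTR1B was at 0 in all 12 libraries. HTR2B, HTR3A, HTR4 and SLC6A4 had at most 4 recovered reads in any library. The libraries held 31008429 to 37624399 reads on genes, so 1 library could place a gene of 1 kb with 0 reads only under 0.0805 to 0.0962 FPKM, the value of 3 reads; this limit and the others given for counts of 0 cover counting error only. HTRA2 itself had 777 to 805 reads in the knockdown libraries and 1306 to 1695 in the other 9 libraries, and fell by 0.98 on the log2 scale against TNF-α (SE 0.09, adjusted p = 2.77e-05, limma).

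The cells matched their label in part. The general epithelial markers KRT8, KRT18, EPCAM and CDH1 were high, with means of 1115, 1142, 66.6 and 66.8 FPKM. The intestinal factor CDX2 was at 0 in all 12 libraries, the intestinal genes CDX1 and VIL1 had at most 2 reads in any library, and the squamous basal keratin KRT5 had a mean of 139 FPKM. Of the enterochromaffin markers, CHGA and SCG2 had means of 0.157 and 0.199 FPKM, NEUROD1 was at 0, and TPH1, the hydroxylase of serotonin-making gut cells, had 0 to 12 reads.

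The stretches of 250 bases upstream of the RefSeq start of HTR7, HTR1D and MAOB are shown because these 3 of the 4 detected genes have windows outside annotated exons of their own gene. They are given 5′ to 3′ on the gene's strand (GRCh38.p14), with GC boxes, GGGCGG or its reverse complement CCGCCC on either strand, in capitals.
HTR7, chr10:90858040-90858289, minus strand: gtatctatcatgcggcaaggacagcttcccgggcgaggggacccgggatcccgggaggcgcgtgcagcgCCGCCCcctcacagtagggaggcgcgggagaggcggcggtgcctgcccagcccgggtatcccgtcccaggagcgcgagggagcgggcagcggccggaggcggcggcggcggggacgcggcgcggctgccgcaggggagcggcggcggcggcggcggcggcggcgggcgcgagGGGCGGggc
HTR1D, chr1:23217503-23217752, minus strand: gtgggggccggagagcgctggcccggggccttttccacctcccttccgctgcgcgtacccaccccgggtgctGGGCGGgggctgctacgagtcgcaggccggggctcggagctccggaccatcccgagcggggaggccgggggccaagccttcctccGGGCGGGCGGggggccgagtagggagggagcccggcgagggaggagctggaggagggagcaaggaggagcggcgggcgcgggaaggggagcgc
MAOB, chrX:43882451-43882700, minus strand: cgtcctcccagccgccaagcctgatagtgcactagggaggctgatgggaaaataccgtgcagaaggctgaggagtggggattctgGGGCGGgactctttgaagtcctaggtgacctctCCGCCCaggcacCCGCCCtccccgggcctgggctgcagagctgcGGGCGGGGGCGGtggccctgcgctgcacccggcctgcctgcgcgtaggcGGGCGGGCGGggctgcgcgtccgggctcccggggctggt

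MAOB held 7 GC boxes between 165 and 35 bases upstream, HTR1D 3 and HTR7 2, counting overlapping boxes separately. The MAOA window, which lies wholly in annotated exon sequence and is not shown, held 4. Of 35095 windows of the same length in the RefSeq table, 42.6% held at least 1 GC box, 13.9% held 3 or more and 2.21% held 6 or more. The kappa-B consensus, to which NF-κB binds, was matched in 0 of the windows of the 7 members that have one, against 9.95% of all windows; such a count says only that these letters are not in the window. The RefSeq start of HTR1D lies 22773 bases outside the gene model used for the deposited values, and that of HTR7 341 bases outside.

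Of the 4 members tested, 2 passed the threshold in any comparison: HTR7 fell in the HTRA2 knockdown, and MAOA was higher than in medium in the 5-OH-TMT libraries and in the knockdown. For TNF-α against medium, 0 of the 4 were called at an adjusted p under 0.05 (limma), where 4.1% of 18079 genes were called. At an unadjusted p under 0.05 there were 2, HTR7 and MAOA, where 14.8% of genes passed. For 5-OH-TMT with TNF-α against TNF-α alone, 0 were called, where 0.0387% of genes, or 7, were called, and 0 had an unadjusted p under 0.05, where 20.1% of genes did. In the knockdown against TNF-α the 1 member called was HTR7, lower, where 17.4% of genes were called and 8.08% were called lower. For 5-OH-TMT with TNF-α against medium it was MAOA, higher, where 6.55% were called and 4.99% were called higher. Between the knockdown and 5-OH-TMT it was HTR7 again, lower, where 15.3% were called and 7.43% were called lower. For the knockdown against medium, a comparison added after the values were seen, it was MAOA, higher, where 24.3% were called and 12.9% were called higher. These comparisons share libraries and do not count as separate evidence.

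By the rule that the study uses for a differentially expressed gene, a fold of 2 with an unadjusted p of at most 0.05, 0 members passed in any comparison. Of all genes, 2.73% passed it for TNF-α against medium, 1.5% for 5-OH-TMT with TNF-α against TNF-α, 4.23% for the knockdown against TNF-α, 3.04% for 5-OH-TMT against medium, 3.19% for the knockdown against 5-OH-TMT and 6.52% for the knockdown against medium. The median change of the 4 tested members was 0.27 for TNF-α against medium and 0.02 for 5-OH-TMT against TNF-α, beside -0.0020 and 0 over all genes.

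For TNF-α against medium, HTR7 and MAOA were higher in each TNF-α library than in any medium library and 0 members were lower throughout; among all genes 11.1% were higher and 8.74% lower throughout. For 5-OH-TMT with TNF-α against TNF-α the groups overlapped in each of the 4 members, where 16.3% of genes were higher and 15.5% lower throughout. Between the knockdown and TNF-α, MAOA was higher and HTR7 lower throughout, as were 17.5% and 16.4% of genes. For 5-OH-TMT with TNF-α against medium, HTR7 and MAOA were higher throughout, where 13.8% of genes were higher and 12.5% lower. Set against 5-OH-TMT, the knockdown had MAOA higher and HTR7 and MAOB lower throughout, where 18.2% and 17.6% of genes were. For the knockdown against medium, MAOA was higher and MAOB lower, where 17.6% and 17.1% were.

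HTR7, the Gs-coupled receptor, was the most abundant of the 17 serotonin receptor genes examined, the 6 members and 11 others. The gene (ENSG00000148680) lies on the minus strand of chromosome 10 from 90740823 to 90857698 (hg38), with up to 4 exons per transcript. Its level was 1.34, 1.02 and 1.02 FPKM in the 3 medium libraries. With TNF-α it was 2.07, 1.49 and 1.94 FPKM. With TNF-α and 5-OH-TMT it was 1.75, 1.52 and 1.71 FPKM. The 6 libraries of these groups treated with TNF-α lay above every medium library. In the HTRA2 knockdown it was 1.10, 1.23 and 0.841 FPKM, so that all 3 libraries lay under every other library given TNF-α and within or under the range in medium.

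The difference of HTR7 between TNF-α and medium was 0.66 on the log2(FPKM + 0.1) scale (95% interval 0.29 to 1.03) and missed the threshold, with an adjusted p of 0.0522 (limma, over 18079 genes). Between 5-OH-TMT with TNF-α and TNF-α alone the difference was -0.12 (interval -0.49 to 0.25, adjusted p = 0.712, limma). In the knockdown HTR7 fell by 0.74 against TNF-α (interval -1.11 to -0.37, adjusted p = 0.0101, limma), from a mean of 1.83 ± 0.31 to 1.06 ± 0.20 FPKM (SD, n = 3 each). It was also lower in the knockdown than with 5-OH-TMT and TNF-α, with a difference of -0.62 (interval -0.99 to -0.25, adjusted p = 0.0299, limma), and the difference between knockdown and medium was -0.08 (interval -0.45 to 0.28, adjusted p = 0.773, limma). The fall against TNF-α was called in 17 of 18 settings of the analysis, the exception being a fit to only those 2 groups (adjusted p = 0.0518); the fall against 5-OH-TMT was called in 10 of 18 and in only 1 of the 6 that left out a library. For each of these comparisons of 3 libraries with 3, an exact permutation test cannot give a two-sided p under 0.1.

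**Figure D1:**
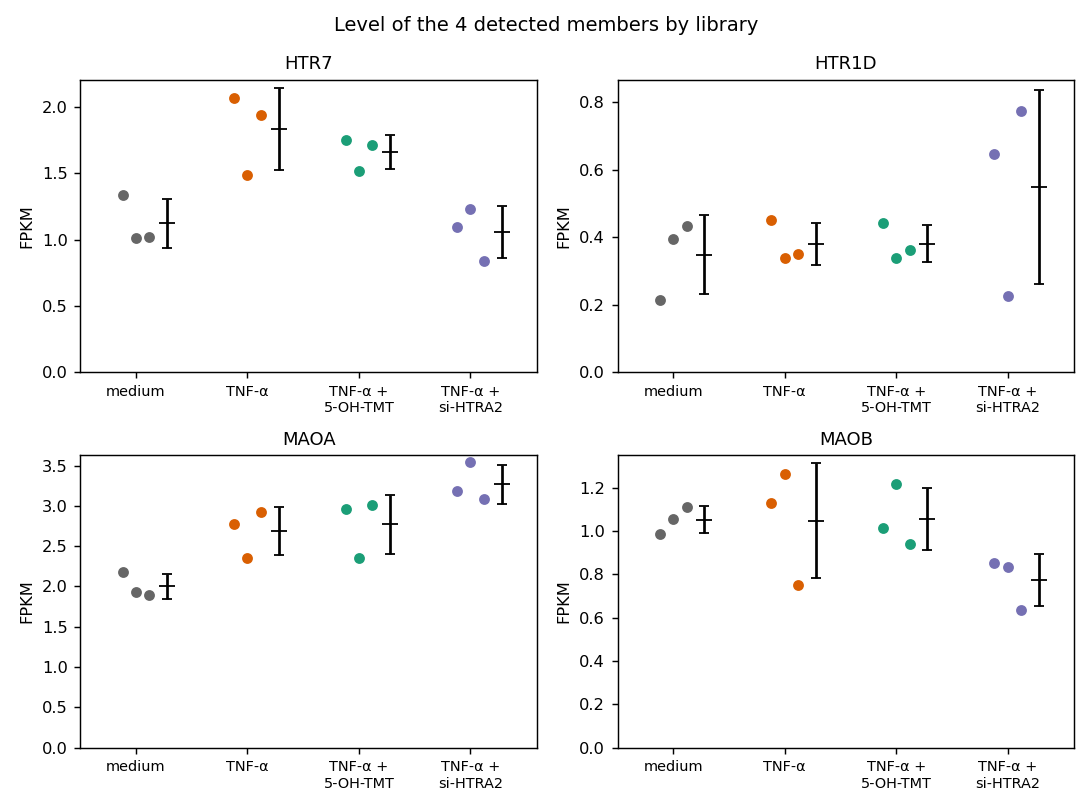
Level in FPKM (vertical axis) of HTR7, HTR1D, MAOA and MAOB in each of the 12 libraries, with 1 point per library and the mean ± SD of each group as a bar beside it. HTR7 is lowest in medium and in the knockdown, MAOA lies between 1.90 and 2.18 FPKM in medium and between 3.09 and 3.54 FPKM in the knockdown, and the HTR1D libraries of the knockdown lie far apart.

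Some reads counted for HTR7 may have come from its pseudogene. HTR7P1, a transcribed processed pseudogene on chromosome 12, is 89.4% identical to an HTR7 transcript over 2445 aligned bases, and it had 43 to 139 recovered reads per library beside 96 to 238 for HTR7. HTR7P1, looked at after the values were seen, was counted with 129, 139 and 113 reads under TNF-α. In the knockdown it had 72, 66 and 43 reads, under all TNF-α libraries, and the log2 difference was -0.97 (SE 0.24, adjusted p = 0.0163, limma). That call was lost without the second TNF-α library or without the third of the knockdown libraries (adjusted p up to 0.0739, limma). Whether reads were shared between both loci was not tested. The 3 genes whose level was most like that of HTR7 across the 12 libraries, among those with a mean of at least 1 FPKM, were TXNRD1, ERCC6 and C6orf141, with Pearson r of 0.91, 0.88 and 0.86; the libraries share their groups, and these are descriptions.

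Cell type markers also differed between the knockdown and TNF-α libraries, where 17.4% of all genes were called. Of 12 colon epithelium markers 5 were tested, and KRT19 and CDH1 rose, by 0.77 and 0.40 (adjusted p = 0.00440 and 0.00108, limma). Both were called in 6 of 6 fits that left out a library. The other markers tested, KRT8, KRT18 and EPCAM, were not called, and the median change of the 5 was -0.02. The summed level of the colon list was 2118 to 2387 FPKM in the knockdown and 2260 to 2509 FPKM with TNF-α. It was 2498 to 2685 FPKM with 5-OH-TMT and TNF-α, and 2122 to 2689 FPKM in medium. Of 6 fibroblast and smooth muscle markers, 2 were tested, COL1A1 and ACTA2, and both rose against TNF-α, by 1.23 and 1.05 (adjusted p = 0.000126 and 0.00361, limma). The summed level of that list was 4.19 to 5.43 FPKM in the knockdown and 1.59 to 2.68 FPKM in the other 9 libraries, with DCN at 0 and at most 10 reads of COL1A2 in any library. Of 4 squamous basal markers, KRT13 and KRT5 rose and TP63 fell, with KRT5 called in 3 and TP63 in 1 of the 6 fits that left out a library, and the sum was 214 to 251 FPKM in the knockdown and 166 to 204 FPKM elsewhere. Of 5 leukocyte markers only CD14 was tested, and it was higher in the knockdown than with TNF-α (by 1.41, adjusted p = 0.0163, limma), while CD3E and TPSAB1 were at 0. CD14 was at a mean of 0.397 FPKM in medium, 0.0946 with TNF-α and 0.443 in the knockdown, and the difference between knockdown and medium was 0.09 (adjusted p = 0.897, limma). Its call against TNF-α held in 3 of 6 fits that left out a library. In these bulk libraries fewer cells with a transcript and less transcript per cell cannot be told apart, and the part of these markers in the change of HTR7 was not tested.

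HTR1D, a Gi-coupled receptor, was the only other member receptor above the filter. It is a gene of 1 annotated exon (ENSG00000179546, chromosome 1, minus strand, 23191895 to 23194729, hg38), and its level was 0.214, 0.396 and 0.432 FPKM in medium, from 21, 36 and 40 reads. With TNF-α it was 0.452, 0.339 and 0.350 FPKM. With 5-OH-TMT added it was 0.441, 0.338 and 0.363 FPKM. In the knockdown it was 0.645, 0.225 and 0.774 FPKM, from 66, 23 and 80 reads. The first and the third knockdown libraries lay above all other libraries, and the second lay under all but 1. That second library also had the lowest share of mitochondrial reads, 2.95% against 3.69% to 4.68% in the other 11, and whether this bears on HTR1D was not tested.

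HTR1D was called in 0 of the 5 planned comparisons. The difference between 5-OH-TMT with TNF-α and TNF-α alone was 0.0019 (95% interval -0.75 to 0.75), so a change in either direction of up to 0.75 on the log2 scale is within that interval. The knockdown differed from TNF-α by 0.32 (interval -0.43 to 1.07, adjusted p = 0.582, limma), and by 0.76 without the second knockdown library (adjusted p = 0.0721, limma). Within the knockdown the reads of HTR1D varied by 15.4 times the counting variance (chi-squared per degree of freedom), and by 0.77 to 3.81 times in the other groups. Its nearest patterns across the libraries were those of SH3BP1, CRABP2 and PPP1R3D (r = 0.85, 0.84 and 0.82).

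The other 4 member receptors were at or near 0. HTR1B, also a Gi-coupled receptor, had no read in 12 libraries, which places it under 0.0398 to 0.0476 FPKM in each library and under 0.00354 FPKM in all libraries pooled. HTR2B, a Gq-coupled receptor, had 0 reads in the 3 medium libraries, and 2, 3 and 0 reads in the TNF-α libraries. The 5-OH-TMT libraries had 0, 1 and 0 reads and the knockdown libraries 1, 2 and 2. These counts are at or under the floor of 3 reads, so no fold is given. HTR2B also shares 559 exon bases with PSMD1 on the opposite strand, a gene with 5683 to 8655 reads, and without strand the reads of these exons cannot be told apart; the strandedness of the counting is not given in the sources used here. HTR3A had 4 reads in the second knockdown library and 0 in the other 11. HTR4, the other Gs-coupled member, had 2 reads in 1 medium library and 3 reads over the TNF-α libraries, and 0 in the other 2 groups.

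**Figure D2:**
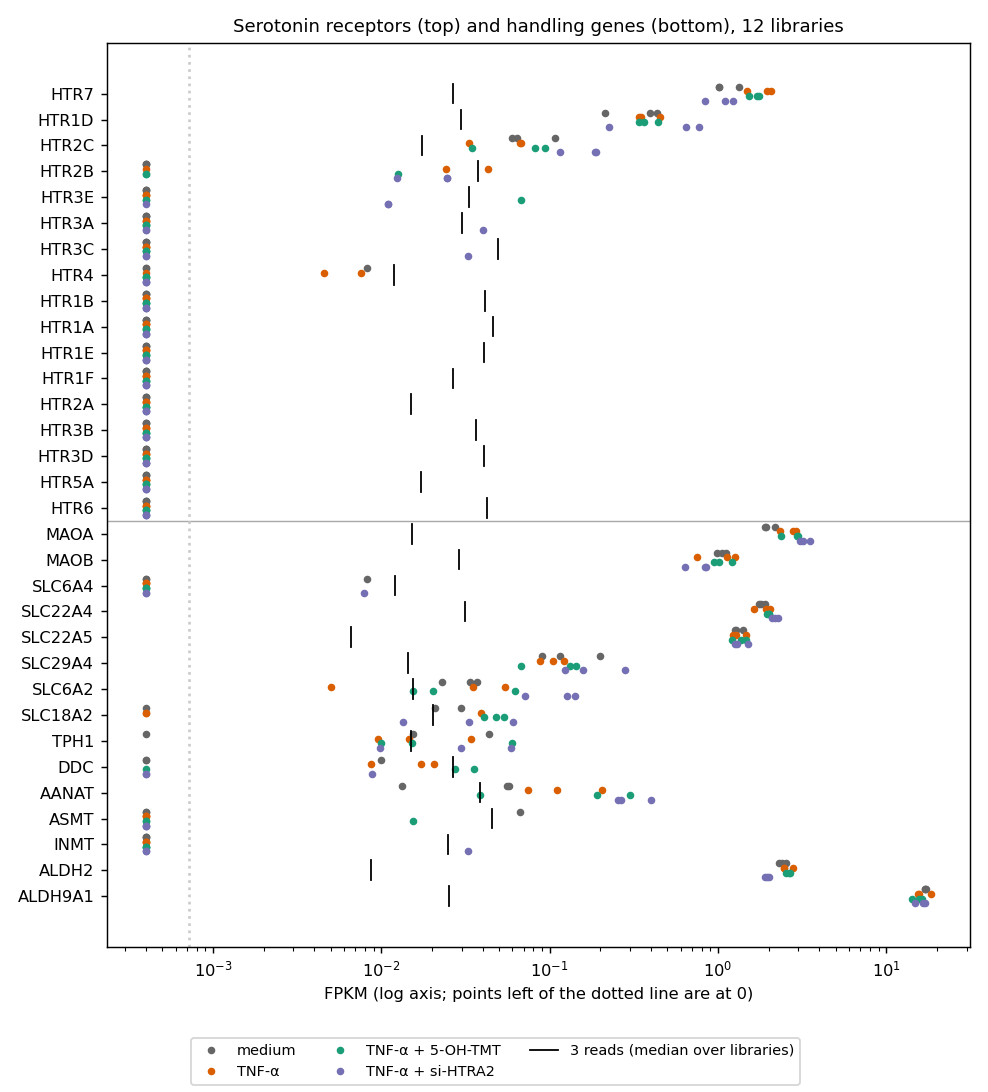
FPKM on a log axis of 17 serotonin receptor genes (top) and of 15 genes of uptake, synthesis and breakdown (bottom), with 1 point per library coloured by group, and a tick at the median value of 3 reads. Points left of the dotted line are at 0. HTR7, HTR1D and HTR2C lie above the tick in every library, and 9 receptor genes are at 0 throughout.

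The 11 other serotonin receptor genes had 0 members above the filter, and 8 of them, HTR1A, HTR1E, HTR1F, HTR2A, HTR3B, HTR3D, HTR5A and HTR6, were at 0 in every library. HTR2C, a Gq-coupled receptor best known from the brain, came nearest to it with a mean of 0.0916 FPKM. Its reads numbered 10, 10 and 17 in medium and 12, 10 and 6 under TNF-α. They numbered 16, 14 and 6 in the 5-OH-TMT libraries. The knockdown libraries had 33, 20 and 33 reads, above all 9 others. In a fit without the filter, over 31951 genes, the knockdown differed from TNF-α by 0.75 (SE 0.23) with an adjusted p of 0.0760 (limma), short of the threshold. HTR3E had 6 reads in 1 library with 5-OH-TMT and at most 1 in any other.

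MAOA, the oxidase with the higher affinity for serotonin, was the most abundant member, and its mean of 2.68 FPKM lay at the 52.3rd percentile of the 16559 protein-coding genes above 0. It lies on the plus strand of the X chromosome (ENSG00000189221, 43654907 to 43746824, hg38), next to MAOB on the minus strand. MAOA was at 2.18, 1.93 and 1.90 FPKM in medium and at 2.77, 2.35 and 2.93 FPKM with TNF-α. It was at 2.96, 2.35 and 3.01 FPKM with 5-OH-TMT and TNF-α, and at 3.18, 3.54 and 3.09 FPKM in the knockdown. Each medium library lay under every library given TNF-α, and each knockdown library lay above all 9 others.

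The step in MAOA from medium to TNF-α was 0.40 (95% interval 0.14 to 0.67, adjusted p = 0.102, limma), which missed the threshold. From TNF-α to 5-OH-TMT with TNF-α it was 0.04 (interval -0.22 to 0.31, adjusted p = 0.874, limma), and from TNF-α to the knockdown 0.28 (interval 0.02 to 0.54, adjusted p = 0.138, limma). Over the whole span MAOA rose: it was higher with 5-OH-TMT and TNF-α than in medium, by 0.45 (interval 0.18 to 0.71, adjusted p = 0.0492, limma), and higher in the knockdown than in medium, by 0.68 (interval 0.42 to 0.94, adjusted p = 0.00155, limma). The rise with 5-OH-TMT held in 6 of 18 settings, while the rise in the knockdown held in 18 of 18 with adjusted p from 0.000802 to 0.00984 (limma). Both comparisons with medium include TNF-α, so neither rise is one of 5-OH-TMT or of the knockdown alone. The step from TNF-α to the knockdown was called in 0 of 18 settings. The genes with patterns most like MAOA were SQOR, a mitochondrial sulfide oxidase, PDE4DIP and ARHGEF3 (r = 0.96, 0.95 and 0.95 over the 12 libraries).

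MAOB, the oxidase that prefers phenylethylamine, was at 0.988, 1.06 and 1.11 FPKM in medium (ENSG00000069535, X chromosome, 43766611 to 43882447, hg38). It was at 1.13, 1.26 and 0.751 FPKM with TNF-α and at 1.01, 1.22 and 0.942 FPKM with 5-OH-TMT and TNF-α. In the knockdown it was at 0.853, 0.834 and 0.636 FPKM, under all medium and all 5-OH-TMT libraries but overlapping TNF-α through the third of its libraries. MAOB was called in 0 of the 5 planned comparisons, with a difference of -0.38 between knockdown and TNF-α (interval -0.78 to 0.03, adjusted p = 0.195, limma). Without the third TNF-α library that difference was -0.58 with an adjusted p of 0.0455 (limma). Between 5-OH-TMT with TNF-α and TNF-α alone the difference was 0.03 (interval -0.38 to 0.44). AC008946.1, FAM86C1 and PHKA2 had the nearest patterns (r = 0.86, 0.84 and 0.84).

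**Figure D3:**
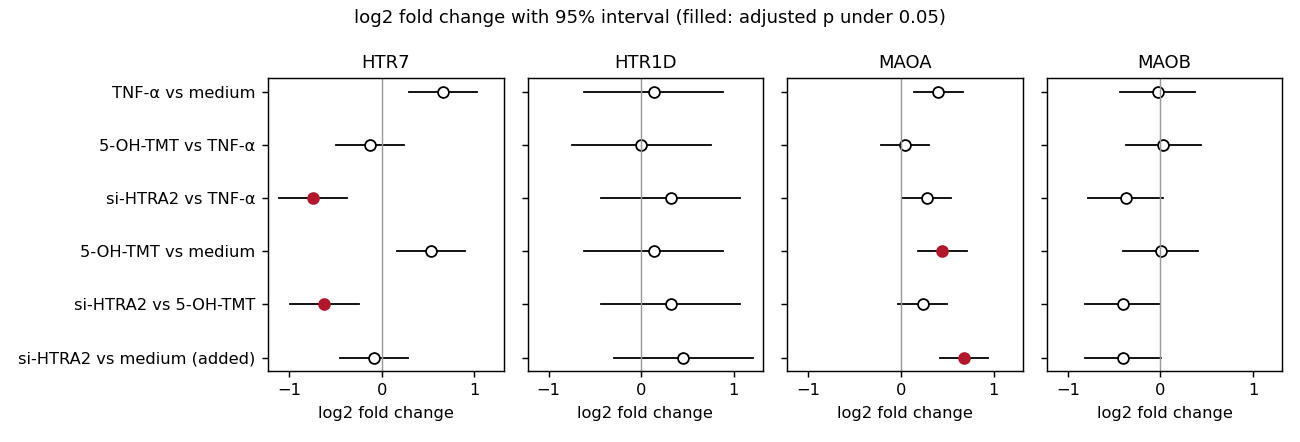
log2 fold change (horizontal axis, on log2(FPKM + 0.1)) of HTR7, HTR1D, MAOA and MAOB in 6 comparisons, where 5-OH-TMT and si-HTRA2 stand for those groups, which also received TNF-α. Points are the limma estimates, lines their 95% intervals, and filled points have an adjusted p under 0.05; all intervals for 5-OH-TMT against TNF-α span 0.

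The levels of the members relative to each other also differed between groups. MAOA was above HTR7 in 12 of 12 libraries, HTR7 above MAOB in 10 and MAOB above HTR1D in 11. Over the 12 libraries the ranges of each of these pairs overlapped. For MAOA and HTR7, the lowest MAOA value was 1.90 and the highest HTR7 value 2.07 FPKM. The ratio of MAOA to MAOB, per gene length, was 1.71 to 2.20 in medium, 1.86 to 3.89 with TNF-α, 1.93 to 3.19 with 5-OH-TMT and TNF-α, and 3.73 to 4.86 in the knockdown. The knockdown ratios lay above those of medium and 5-OH-TMT and overlapped those of TNF-α in the third of its libraries (exact permutation p = 0.2, two-sided, n = 3 against 3). The ratio of MAOA to HTR7 was 2.90, 2.88 and 3.67 in the knockdown and 1.34 to 1.90 in the other 9 libraries. Against TNF-α with or without 5-OH-TMT this separation was fixed, because MAOA was higher and HTR7 lower throughout. It restates those results and is no added test. Against medium the exact permutation p was 0.1 (two-sided), the smallest that 3 against 3 can give. Across the 12 libraries MAOA and MAOB had a Pearson r of -0.62 and MAOA and HTR7 of 0.22, which describe groups as much as libraries.

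**Figure D4:**
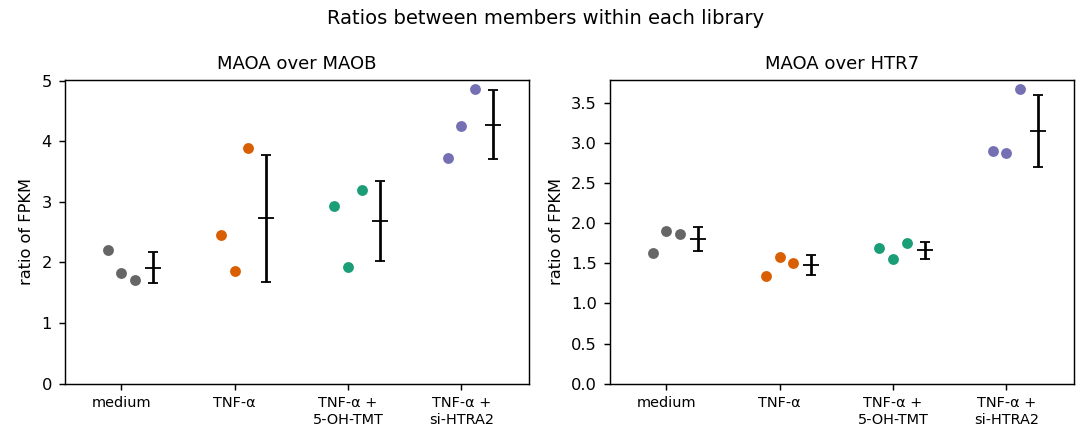
Ratio of the FPKM of MAOA to that of MAOB (left) and of HTR7 (right) in each library, with mean ± SD per group beside the points. In the right panel the 3 knockdown libraries lie between 2.88 and 3.67, above the 9 others.

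Uptake of serotonin by its own transporter was not detectable as transcript at this depth. SLC6A4 had 2 reads in the first medium library, 2 in the third of the knockdown libraries and 0 in the other 10. Of 12 other carriers of monoamines and organic cations, 4 passed the filter, led by SLC22A4 and SLC22A5, carriers of ergothioneine and carnitine, with means of 1.96 and 1.34 FPKM. SLC29A4, a low-affinity monoamine carrier that also passed and was named after its values were seen, had a mean of 0.135 FPKM, while SLC22A2 and SLC18A1 were at 0 in every library. Of these 4 carriers, 0 were called in the 5 planned comparisons. In the added comparison SLC47A2 was lower in the knockdown than in medium, with a difference of -1.16 (SE 0.33, adjusted p = 0.0230, limma). Its mean was 0.484 FPKM in medium, 0.158 FPKM with TNF-α and 0.150 FPKM in the knockdown, and the difference between knockdown and TNF-α was -0.05 (adjusted p = 0.940, limma). The call against medium held in 3 of 6 fits that left out a library.

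Of 10 genes of serotonin and tetrahydrobiopterin synthesis, 7 passed the filter. The genes of serotonin synthesis proper, named after their values were seen, did not: TPH1 had at most 12 reads, TPH2 had 1 read in 12 libraries and DDC, the decarboxylase, had 0 to 4 per library. The tetrahydrobiopterin genes were led by SPR and PCBD1 with means of 32.7 and 13.5 FPKM. GCH1, which catalyses the first step of that cofactor's synthesis, rose with TNF-α from 3.34 ± 0.58 to 5.36 ± 1.10 FPKM (log2 difference 0.66, adjusted p = 0.0399, limma). In the knockdown GCH1 was at 7.44 ± 0.93 FPKM, higher than with 5-OH-TMT (by 0.59, adjusted p = 0.0300, limma). No gene of this list was called between the knockdown and TNF-α. The rise of GCH1 with TNF-α and its difference from 5-OH-TMT were each called in 2 of the 6 fits that left out a library. In the added comparison GCH1 was higher in the knockdown than in medium, by 1.14 (adjusted p = 0.000294, limma). That call held in 6 of 6 fits with a library left out and in 11 of 11 other settings, and the comparison includes TNF-α.

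Among 11 genes of indoleamine metabolism, 8 passed the filter, with the aldehyde dehydrogenases ALDH9A1 and ALDH1B1 highest at 16.3 and 9.07 FPKM. ALDH2, which oxidises the aldehydes that monoamine oxidase forms, fell in the knockdown from 2.57 ± 0.18 FPKM with TNF-α to 1.96 ± 0.05 FPKM (difference -0.37, adjusted p = 0.0118, limma). It was also lower than with 5-OH-TMT (difference -0.40, adjusted p = 0.0109, limma). TGM2, a transglutaminase that can link serotonin to proteins, was higher with 5-OH-TMT and TNF-α than in medium, at 1.21 ± 0.12 against 0.650 ± 0.064 FPKM (by 0.80, adjusted p = 0.0153, limma). AANAT and UGT1A6, low genes with means of 0.164 and 0.182 FPKM, were higher in the knockdown than in medium by 1.52 and 1.01 (adjusted p = 0.0190 and 0.0203, limma). With each library left out in turn, TGM2 was called in 3 of 6 fits, and AANAT and UGT1A6 in 4 of 6 each. With TNF-α alone the means were 0.960 FPKM for TGM2, 0.130 for AANAT and 0.164 for UGT1A6. No gene of this list was called higher than with TNF-α alone, either with 5-OH-TMT or in the knockdown.

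Of 21 G proteins and effectors, 14 passed the filter, and GNAS, the Gs subunit to which HTR7 couples, was highest at a mean of 111 FPKM, followed by GNAI2 at 51.9 FPKM. In the knockdown against TNF-α 4 rose and 0 fell: GNAO1, ADCY6, GNAQ and ADCY9, by 0.49, 0.49, 0.38 and 0.30 (adjusted p = 0.0327, 0.00457, 0.0224 and 0.0106, limma). Of all 18079 genes tested, 1691 were called higher there, and 17.4% were called in either direction. ADCY6 and ADCY9 were called in 6 of 6 fits that left out a library, and GNAO1 and GNAQ in 1 of 6 each, with adjusted p up to 0.135 and 0.0760 (limma). ADCY6 and ADCY9 are adenylyl cyclases, and ADCY9 had fallen with TNF-α by 0.38, from 3.95 ± 0.07 to 3.02 ± 0.05 FPKM (adjusted p = 0.00786, limma). GNAZ was lower with 5-OH-TMT and TNF-α than in medium (difference -0.51, adjusted p = 0.0438, limma), a call that held in 0 of 6 fits with a library left out (adjusted p 0.0624 to 0.177, limma) and in 6 of 11 other settings. In the added comparison of knockdown with medium, GNAZ was lower (difference -0.73, adjusted p = 0.00186, limma), in 6 of 6 fits with a library left out. GNAS was higher there (by 0.23, adjusted p = 0.0222, limma), in 2 of 6. Neither was called between the knockdown and TNF-α. In the knockdown against 5-OH-TMT, GNAQ was higher and PLCB3, a phospholipase downstream of Gq, was lower, with differences of 0.49 and -0.29 (adjusted p = 0.00763 and 0.0497, limma). GNAQ was called there in 6 of 6 fits with a library left out, and PLCB3 in 1 of 6 (adjusted p up to 0.147, limma) and in 7 of 11 other settings.

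Of 7 receptor partners, 6 passed the filter; S100A10 and GRK6 were highest at 234 and 34.0 FPKM, and RIC3, a chaperone of HTR3 and nicotinic channels, was at 0 in every library. The arrestins ARRB1 and ARRB2, which end signalling of G protein-coupled receptors, were lower in the knockdown than with 5-OH-TMT, with differences of -0.40 and -0.50 (adjusted p = 0.0298 and 0.00626, limma). ARRB1 was higher with 5-OH-TMT and TNF-α than in medium, at 5.87 ± 0.49 against 4.15 ± 0.63 FPKM (by 0.50, adjusted p = 0.0185, limma). With TNF-α alone ARRB1 was at 4.33 FPKM and ARRB2 at 15.5 FPKM, beside 4.40 and 12.6 FPKM in the knockdown. Neither was called between the knockdown and TNF-α. In the added comparison ARRB2 was lower in the knockdown than in medium (difference -0.55, adjusted p = 0.00157, limma). With a library left out, ARRB2 was called in 6 of 6 fits against 5-OH-TMT and in 6 of 6 against medium. ARRB1 was called in 2 of 6 between the knockdown and 5-OH-TMT and in 3 of 6 between 5-OH-TMT and medium. Of 16 nicotinic receptor subunits, examined because the compound carries a quaternary ammonium, 4 passed the filter, led by CHRNB1 and CHRNA5 at 8.79 and 0.967 FPKM. CHRNA5 fell in the knockdown against TNF-α by 0.65 (adjusted p = 0.0372, limma), a call that held in 1 of 6 fits with a library left out (adjusted p up to 0.144, limma) and in 7 of 10 other settings.

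Over these 88 other genes of the pathway, 43 were tested. TNF-α against medium called 2 of them (4.65%, with 4.1% of all genes), and 5-OH-TMT with TNF-α against TNF-α called 0. The knockdown called 6 against TNF-α (14%, with 17.4% of all genes) and 6 against 5-OH-TMT (14%, with 15.3%). 5-OH-TMT with TNF-α called 3 against medium (6.98%, with 6.55%). In the added comparison the knockdown called 8 against medium (18.6%, with 24.3%). These counts moved with the processing. Over the other settings they ranged from 0 to 4 for TNF-α against medium, from 0 to 7 for 5-OH-TMT against TNF-α and from 3 to 10 for the knockdown against TNF-α. They ranged from 1 to 3 for 5-OH-TMT against medium and from 3 to 9 for the knockdown against 5-OH-TMT. With a library left out the ranges were 1 to 2, 0 to 0, 3 to 8, 0 to 3 and 3 to 5 in the same order. For the knockdown against medium the count ranged from 5 to 11 over the other settings and from 3 to 13 with a library left out. The median change of the 43 genes was 0.12 for 5-OH-TMT against TNF-α and 0.02 for the knockdown against TNF-α, beside 0 and -0.0034 over all genes.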

How the data were processed

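Poly(A)-selected RNA of NCM460 cells was sequenced. The authors deposited FPKM values, with the length of each gene. The submitters' processing notes name HISAT2 2.0.4, HTSeq 0.9.1 and hg38, and the strandedness of the counting is not given in the sources used here. Whole reads were recovered from the FPKM steps and lengths: 100% of values came out whole within 0.01. Identifiers and coordinates matched GENCODE 29 for all 58735 genes.

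Members and lists were chosen with earlier results of these data known. With R 4.3.3 and limma 3.58.1, log2(FPKM + 0.1) was modelled by group for 18079 genes, those averaging at least 0.1 FPKM (eBayes with trend, 8 residual degrees of freedom). Tests were two-sided with Benjamini-Hochberg adjustment over all genes tested, and a call is an adjusted p under 0.05. A fold on this scale understates the change of low genes. Genes under the filter were read from a fit of 31951 genes. Exact permutation tests compared 3 libraries with 3 (scipy 1.17.1), and BLAST 2.17.0 compared transcripts. Named are all members, HTRA2, the 2 highest genes of each list, up to 4 called genes per list and comparison, and the 3 nearest patterns of each detected member. Outside this rule, HTR2C, HTR3E, TPH1, TPH2, DDC, SLC29A4, CDX1, VIL1 and COL1A2 were named after their values were seen. The fit was also run on simulated counts, with the same spread set for all genes and larger changes than those of the members. Those data do not cover changes as small as those of the members. Alternatives were other pseudocounts (1 and 0.01), filters and scalings, only the groups compared, no trend, a replicate block, voom on the recovered reads, and each library left out. The comparison of knockdown with medium, and HTR7P1, were added after the values were seen.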

Additional observations from a re-analysis of the deposited data

How the results depend on the processing

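Of the members, 0 were called for 5-OH-TMT with TNF-α against TNF-α under every alternative, although the number of all genes called there went from 7 to between 1 and 911 (911 when only these 2 groups were fitted, 236 by voom on the recovered reads, 127 with the filter at a mean of 1 FPKM, 15 after scaling to a fixed sum, and 4 with quantile normalization, 3 with a pseudocount of 1, and 1 without trend or with the replicate block). For TNF-α against medium, 1 member instead of 0 was called with the filter at 1 FPKM and with quantile normalization, and 0 to 1 with a library left out (1, HTR7, without the first medium or the second TNF-α library). For the knockdown against TNF-α, 0 instead of 1 were called when only these 2 groups were fitted, and 1 to 2 with a library left out (2 without the third TNF-α library, which adds MAOB). For 5-OH-TMT with TNF-α against medium, 0 instead of 1 were called with a pseudocount of 1, no filter, scaling to a fixed sum, only the 2 groups, no trend, the replicate block and voom, and 0 to 1 with a library left out, the call holding only without the second library with 5-OH-TMT. For the knockdown against 5-OH-TMT, 0 instead of 1 were called with no filter, scaling to a fixed sum and only the 2 groups, and 0 to 1 with a library left out: the call was lost without any of the 3 libraries with 5-OH-TMT and without the first or the third knockdown library. For the knockdown against medium, 1 to 2 were called with a library left out (2 without the second knockdown library, which adds HTR1D). The causes were not tested.

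No pairing by replicate number was seen: the residuals of libraries with the same number had correlations of -0.10 to 0.04. Libraries with different numbers had -0.04 to 0.11. These correlations cannot establish that the libraries were unpaired. The replicate block changed no call of a member other than the 1 of MAOA against medium, which became 0.

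Differences near 0 changed sign in some alternatives. For 5-OH-TMT with TNF-α against TNF-α, HTR1D was at -0.00682 after quantile normalization, -0.0306 after scaling to a fixed sum and -0.0398 by voom, and MAOB at -0.00568 after scaling to a fixed sum. Against medium, MAOB with 5-OH-TMT was at -0.0218 after scaling to a fixed sum and -0.0501 by voom, and HTR7P1 at -0.00903 by voom. With a library left out, HTR1D ranged from -0.10 to 0.28 for TNF-α against medium, from -0.0869 to 0.106 for 5-OH-TMT against TNF-α and from -0.10 to 0.28 for 5-OH-TMT against medium. HTR7 ranged from -0.193 to 0.0566 for the knockdown against medium, and MAOA from -0.0448 to 0.154 for 5-OH-TMT against TNF-α. MAOB ranged from -0.17 to 0.17 for TNF-α against medium, from -0.17 to 0.17 for 5-OH-TMT against TNF-α and from -0.0961 to 0.0727 for 5-OH-TMT against medium, and HTR7P1 from -0.12 to 0.27 in the last of these.

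When only the 2 groups were fitted, 392 instead of 742 genes were called for TNF-α against medium and 2573 instead of 4391 for the knockdown against medium. With a library left out, the calls over all genes were 2015 to 3337 for the knockdown against TNF-α, 605 to 1638 for 5-OH-TMT against medium and 1314 to 2706 for the knockdown against 5-OH-TMT. Scaling to a fixed sum took the share of higher calls in the knockdown against 5-OH-TMT from 51.4% to 63.2%. Members with at most 4 reads in a library cannot show a change at this depth.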
